A study of Mus musculus with 24 samples.

Results

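The p53 circuit and the damage checkpoint kinases were followed here as 8 genes: Trp53, Mdm2, Mdm4, Ppm1d, Atm, Atr, Chek1 and Chek2. They were found by their names among the non-control probes of a mouse 1-colour Agilent expression array, where 11 of the 39429 probes carried one of them, out of 29719 differently named genes or transcripts. Atm, Atr and Mdm4 had 2 probes each and the other genes 1. Blood of C57BL/6J males was drawn by cardiac puncture into PAXgene tubes, which fix RNA, 24 h after x-rays of 7 Gy or sham exposure at 0 Gy. The 24 arrays fell into 4 groups: 9 arrays of Gadd45aKO mice at 7 Gy, 5 of Gadd45aKO mice at 0 Gy, 5 of Gadd45aWT mice at 7 Gy and 5 of Gadd45aWT mice at 0 Gy. The design describes the samples as independent experiments. Gadd45a encodes a stress protein that is itself a p53 target. Replicates 1 and 4 of the Gadd45aKO group at 0 Gy differed by less than repeat spots of a probe did within an array and were counted as 1 sample, which left n = 4 there.

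The probe for Gadd45a was checked first. Its log2 level (the log2 processed signal relative to the 75th percentile of its array) lay between -0.66 and 0.33 on the Gadd45aKO arrays at 7 Gy and between 0.30 and 0.70 on the Gadd45aKO arrays at 0 Gy, against -1.61 to -0.79 on the Gadd45aWT arrays at 7 Gy and 0.31 to 0.89 on the Gadd45aWT arrays at 0 Gy. It was well above background on all 24 arrays, so the signal of this probe did not set the knockout arrays apart by a loss. Whether it lies inside the deleted part is not given in the sources used here. The arrays are therefore called KO-labelled and WT-labelled, and each direction between them follows the labels.

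When DNA breaks or replication stalls, the kinases ATM and ATR phosphorylate many proteins, among them the checkpoint kinases CHK2 (Chek2) and CHK1 (Chek1). These kinases slow the cell cycle and stabilise p53 (Trp53), a transcription factor that switches on arrest, repair and death genes. MDM2 ubiquitinates p53 and is made from one of its best-known targets. MDM4 (MdmX) binds p53 and masks its activation domain. The phosphatase WIP1 (Ppm1d), also made from a p53 target, removes phosphates that ATM and the checkpoint kinases put on. MDM2 and WIP1 thus close negative feedback loops. Much of the control of p53 and of the kinases is on the protein, which an RNA array does not see. Lymphocytes are among the cells most sensitive to x-rays.

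The sequences upstream of 4 genes are shown. Mdm2 and Ppm1d are textbook p53 targets. Trp53 and Atr were called as falls after 7 Gy in KO-labelled blood, as was Ppm1d. Each window runs from 250 bases before to 50 bases after a RefSeq start site (GRCm38.p6), 5′ to 3′ on the gene's strand. Mdm2 lies at chr10:117710709-117711008 on the minus strand, Ppm1d at chr11:85311004-85311303 on the plus strand, Trp53 at chr11:69580109-69580408 on the plus strand and Atr at chr9:95857347-95857646 on the plus strand. Capitals mark matches on either strand to the p53 half-site, to CCAAT, to the GC box GGGCGG, to the cyclic AMP element core TGACGT or to the E2F-type letters GCGGGAA and GCGCGAA.
Mdm2: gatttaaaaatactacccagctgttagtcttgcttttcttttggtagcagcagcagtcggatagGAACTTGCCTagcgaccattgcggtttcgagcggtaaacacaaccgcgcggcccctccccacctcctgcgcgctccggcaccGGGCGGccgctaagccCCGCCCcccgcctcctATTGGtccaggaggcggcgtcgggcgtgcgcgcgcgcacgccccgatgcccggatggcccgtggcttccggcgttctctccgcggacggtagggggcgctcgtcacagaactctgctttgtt
Ppm1d: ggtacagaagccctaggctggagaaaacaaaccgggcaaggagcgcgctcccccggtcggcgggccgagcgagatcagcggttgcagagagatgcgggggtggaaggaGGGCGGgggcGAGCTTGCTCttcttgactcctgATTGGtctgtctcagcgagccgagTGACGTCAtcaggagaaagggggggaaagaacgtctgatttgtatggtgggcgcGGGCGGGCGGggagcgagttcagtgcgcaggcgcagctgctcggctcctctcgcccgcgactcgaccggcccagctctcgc
Trp53: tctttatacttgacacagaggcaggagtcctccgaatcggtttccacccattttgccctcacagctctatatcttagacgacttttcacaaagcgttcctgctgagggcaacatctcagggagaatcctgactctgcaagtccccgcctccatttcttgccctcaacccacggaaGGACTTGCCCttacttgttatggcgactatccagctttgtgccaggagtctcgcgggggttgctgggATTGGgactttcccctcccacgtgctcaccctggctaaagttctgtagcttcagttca
Atr: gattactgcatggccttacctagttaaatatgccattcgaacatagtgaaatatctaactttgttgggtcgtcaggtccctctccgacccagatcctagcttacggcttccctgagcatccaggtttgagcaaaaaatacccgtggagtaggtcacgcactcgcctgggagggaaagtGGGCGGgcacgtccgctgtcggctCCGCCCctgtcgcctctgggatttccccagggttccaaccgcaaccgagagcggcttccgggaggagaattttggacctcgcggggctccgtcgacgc

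A single p53 half-site was matched in the Mdm2, Ppm1d and Trp53 windows and none in those of Atr, Atm, Chek1, Chek2 and Mdm4, which has 2 windows. Of all 32851 promoter windows of this length, 8.36% held such a match. The Mdm2 half-site began 186 bases before the start site, the Ppm1d one 132 bases and the Trp53 one 75 bases before it. GC boxes were found in the windows of Mdm2, Ppm1d, Atm and Atr and in 35.7% of all windows. CCAAT was matched in the windows of Trp53, Mdm2, Ppm1d, Atm and Chek2 and in 37.4% of all windows. The TGACGT core was matched on both strands at 1 overlapping place in the Ppm1d window, in no other member, and in 7.51% of all windows. An E2F-type match stood in the windows of Atm, Chek1 and Chek2 and in 6.00% of all windows. In the Ppm1d window 2 GC boxes overlapped each other. These matches describe letters, and no binding was measured.

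The probes themselves are 60 bases long and lie at the coordinates that the scanner files give on mm9. The Trp53 probe (chr11:69404204-69404263, plus strand) and the Chek2 probe (chr5:111294547-111294606, plus strand) were the sole reporters of those genes. The main Atr probe (chr9:95851956-95852015, plus strand) was designed on the RefSeq mRNA. The second Atr probe (chr9:95804322-95804381, plus strand) was designed on an Ensembl transcript and starts 47634 bases away. The sequences of this pair are given with that of Trp53 because the pair disagreed in the measurements.
Trp53: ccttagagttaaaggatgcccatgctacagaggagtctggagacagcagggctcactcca
Atr, RefSeq probe: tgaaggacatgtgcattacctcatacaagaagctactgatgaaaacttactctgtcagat
Atr, Ensembl probe: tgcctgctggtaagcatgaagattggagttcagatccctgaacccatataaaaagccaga

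The other probes are given by place alone. Mdm2 was read at chr10:117126010-117126069 (minus strand), Ppm1d at chr11:85160442-85160501 (plus strand) and Chek1 at chr9:36516068-36516127 (minus strand). The Mdm4 probe used in the fit lies at chr1:134886426-134886485 and its second probe at chr1:134888407-134888466, both on the minus strand. The Atm probe used in the fit lies at chr9:53245871-53245930 and the second, which is spotted several times on each array, at chr9:53256167-53256226, both on the minus strand.

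Across the whole series 15781 genes were tested with limma, with p-values adjusted by Benjamini and Hochberg's method over all of them, and adjusted p-values under 0.05 were calls. Between 25.6% and 50.9% of probes were well above background per array. The median log2 change of all genes after 7 Gy was -0.26 in KO-labelled and -0.05 in WT-labelled blood, and other scalings put the KO-labelled median between -0.10 and 0.18. Of the calls after 7 Gy in KO-labelled blood 26.3% were rises, and 38.1% with median scaling, 39.3% with quantile normalization, 46.7% with the percentile over all probes, 46.9% in the authors' value table and 58.3% with normexp background correction. Every one of 12 B cell markers fell in both genotypes. Their summed log2 level was -2.25 to 0.61 in KO-labelled blood at 7 Gy against 3.41 to 3.78 at 0 Gy, and -2.03 to -0.36 in WT-labelled blood at 7 Gy against 3.09 to 3.26 at 0 Gy. In whole blood, fewer cells of a type and less RNA per cell cannot be told apart. Transcripts of liver cells were also measured: of 16 hepatocyte markers, 12 rose after 7 Gy in KO-labelled and 15 in WT-labelled blood, and their summed log2 level was 6.71 to 6.84 on WT-labelled 7 Gy replicates 3 to 5 against 2.99 and 3.01 on replicates 1 and 2. After 7 Gy in KO-labelled blood, 7 of 13 T cell markers fell and 1 rose, and 4 of 8 NK cell markers fell and 1 rose. There 5 of 10 neutrophil markers fell, 8 of 12 erythroid markers fell and 3 rose, and 9 of 10 platelet markers rose. Of 7 monocyte markers 4 rose and 2 fell. In WT-labelled blood 4 T cell markers fell and 2 rose, 0 NK cell markers fell and 2 rose, and 1 neutrophil marker fell. There 8 erythroid markers fell, 6 platelet markers rose, and 2 monocyte markers fell and 1 rose. The summed log2 level of the T cell markers was 1.52 to 2.90 in KO-labelled blood at 7 Gy against 2.78 to 3.18 at 0 Gy, and that of the platelet markers 7.08 to 8.16 against 5.20 to 6.59. The part of these cell types in the members' changes was not tested.

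Detection set what could be said of each member. Mdm2 alone was well above background on all 24 arrays. Atr passed on 19 arrays by its RefSeq probe, Trp53 on 18 and Ppm1d on 19, while Mdm4 passed on 16, Atm on 8 and Chek2 on 7. These 7 genes passed the filter of at least 5 arrays and were tested, and an eighth, Chek1, was well above background on none of the arrays and was not tested. The second Mdm4 probe passed on 4 arrays and the second Atm probe on 3, so neither entered the fit. The 8 arrays on which the tested Atm probe passed were all at 0 Gy, so it entered through the sham groups alone.

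**Figure D1:**
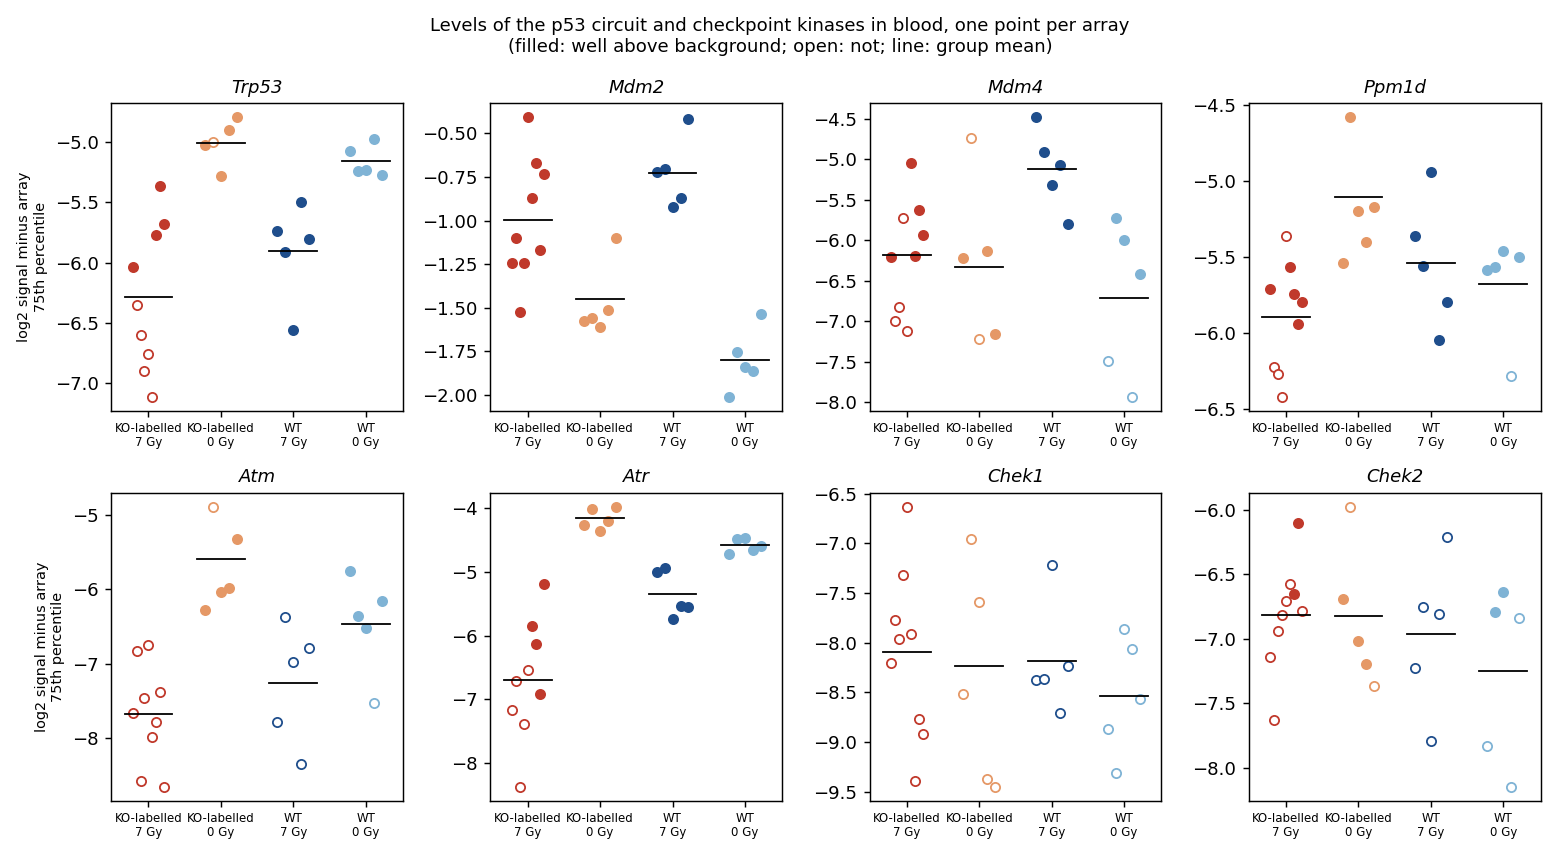
Log2 level (signal relative to the 75th percentile of its array; vertical axis, a separate scale per gene) of the 8 members on each array, with KO-labelled 7 Gy, KO-labelled 0 Gy, WT 7 Gy and WT 0 Gy from left to right. Filled points are well above background, open points are not, and lines are group means; Mdm2 is filled throughout, Chek1 is open throughout, and the 5 WT 7 Gy points of Mdm2 lie above the 5 WT 0 Gy points.

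The first question was how the circuit's transcripts stood 24 h after 7 Gy in WT-labelled blood. The genes of the p53 inhibitors Mdm2 and Mdm4 rose, and no member fell at the threshold. That is 2 rises among 7 members tested, where 10% of all genes tested rose and 13.6% fell. The median change of the 7 members was 0.14, beside -0.05 over all genes.

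Mdm2, the gene of the main p53 ubiquitin ligase, had log2 levels of -0.72, -0.71, -0.92, -0.87 and -0.42 in WT-labelled blood at 7 Gy, against -2.01, -1.75, -1.84, -1.86 and -1.54 at 0 Gy. All 5 irradiated arrays were higher than all 5 sham arrays, as was the case for 11.7% of all genes. The change was 1.07 ± 0.19 on the log2 scale (SE), which is 2.10-fold (adjusted p = 0.000187, n = 5 each). Within each of the 5 slides that carried one array of every group, the difference lay between 0.92 and 1.29. Leaving out replicates 3 to 5 at 7 Gy, the arrays rich in hepatocyte transcripts, gave 1.08 ± 0.26 (adjusted p = 0.00817). Several WT-labelled arrays were close to each other, and when arrays within 2 times the repeat-spot error were averaged the change was 1.15 (adjusted p = 0.131). This made 1 sample of replicates 2 to 5 at 0 Gy, 1 of replicates 1 and 2 at 7 Gy and 1 of replicates 3 to 5 at 7 Gy. In KO-labelled blood at 7 Gy it made 1 sample of replicates 1, 2, 4 and 8. With median scaling the Mdm2 change in WT-labelled blood was 0.93 (adjusted p = 0.119).

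Mdm4, the gene of the MDM2 relative that masks p53, was at -4.48, -4.91, -5.32, -5.07 and -5.80 in WT-labelled blood at 7 Gy, against -7.50, -5.73, -5.99, -7.93 and -6.42 at 0 Gy. The groups overlapped by a single array at each side, and the 2 lowest sham values were not well above background. The change was 1.60 ± 0.49 (SE; adjusted p = 0.0192, n = 5 each). The second Mdm4 probe was well above background on 3 of the 5 arrays at 7 Gy and on 0 of 5 at 0 Gy, and its levels of -6.83 to -5.65 at 7 Gy were all above the sham values of -8.33 to -6.86. Its group means differed by 1.52-fold, where 0 Gy levels were raised to the lowest level that counted as well above background on each array. The call of the tested probe was lost without WT-labelled 0 Gy replicate 1 (1.40, adjusted p = 0.0553) or replicate 4 (1.29, adjusted p = 0.0681), and without 7 Gy replicates 3 to 5 the change was 2.02 (adjusted p = 0.0635). It was also lost with quantile normalization (1.51, adjusted p = 0.0689), median scaling (1.46, adjusted p = 0.0559), normexp background correction (1.14, adjusted p = 0.324) and near-identical arrays averaged (1.96, adjusted p = 0.279).

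Ppm1d, the gene of the WIP1 phosphatase, did not pass the test. Its levels were -5.36, -5.56, -4.94, -6.05 and -5.79 in WT-labelled blood at 7 Gy, against -5.59, -5.57, -5.46, -6.28 and -5.50 at 0 Gy, and the groups overlapped. The change was 0.14 ± 0.24 (adjusted p = 0.761), with a 95% interval from -0.35 to 0.63. So of the 3 inhibitor genes, Mdm2 and Mdm4 rose at this time and Ppm1d was not shown to. The difference between the genes was not tested.

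Trp53, the gene of p53 itself, read -5.74, -5.91, -6.56, -5.49 and -5.80 in WT-labelled blood at 7 Gy, against -5.07, -5.24, -5.23, -4.97 and -5.28 at 0 Gy. The irradiated arrays were all below the sham arrays, which held for 16.8% of all genes, and the difference was negative within all 5 slides (-1.32 to -0.52). The change of -0.74 ± 0.28 missed the threshold (adjusted p = 0.0582), and passed it with the slide as a block (-0.74, adjusted p = 0.0400).

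Atr, the kinase gene that answers stalled replication, showed the same arrangement. The RefSeq probe was at -5.00, -4.94, -5.73, -5.53 and -5.56 in WT-labelled blood at 7 Gy, against -4.71, -4.49, -4.46, -4.66 and -4.60 at 0 Gy, with no overlap. The change was -0.77 ± 0.38 (adjusted p = 0.165), and with the slide as a block -0.77 (adjusted p = 0.0482). The Ensembl probe did not follow it: its change was 0.82 ± 0.72 (adjusted p = 0.486), and its levels ran from -7.78 to -3.09 at 7 Gy against -6.75 to -5.21 at 0 Gy. That probe was called in no comparison.

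Atm is the kinase gene that answers double-strand breaks. Its tested probe was well above background on 0 of 5 WT-labelled arrays at 7 Gy and on 4 of 5 at 0 Gy. With the 7 Gy levels raised as the 0 Gy levels of Mdm4 were, the group mean was 1.21-fold lower at 7 Gy. The change in the limma fit was -0.79 ± 0.42 (adjusted p = 0.189). Chek2, the kinase gene downstream of Atm, was well above background on 0 of 5 arrays at 7 Gy and on 2 of 5 at 0 Gy, and its change of 0.29 ± 0.34 was not called (adjusted p = 0.624). With normexp the uncalled changes of Trp53, Atr and Atm turned positive, at 0.62, 0.39 and 0.82. The normexp median of all genes in WT-labelled blood was 0.60, against -0.05 in the main fit.

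In KO-labelled blood the same dose was followed by more falls than rises among the members. Atr, Atm, Trp53 and Ppm1d fell and Mdm2 rose, so 5 of 7 members were called, while 46.9% of all genes tested were called (12.4% rose and 34.6% fell). The members' median change was -0.79, beside -0.26 over all genes. Relative to that median, the fitted changes were -2.30 for Atr, -1.83 for Atm, -1.02 for Trp53, -0.53 for Ppm1d and 0.71 for Mdm2. Atr and Trp53 were well above background on 4 of the 9 irradiated arrays each, Ppm1d on 5 and Atm on 0. The sizes of these falls rest on levels at background, in part or throughout, and have no order. Atm also entered the fit through 0 Gy arrays alone.

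**Figure D2:**
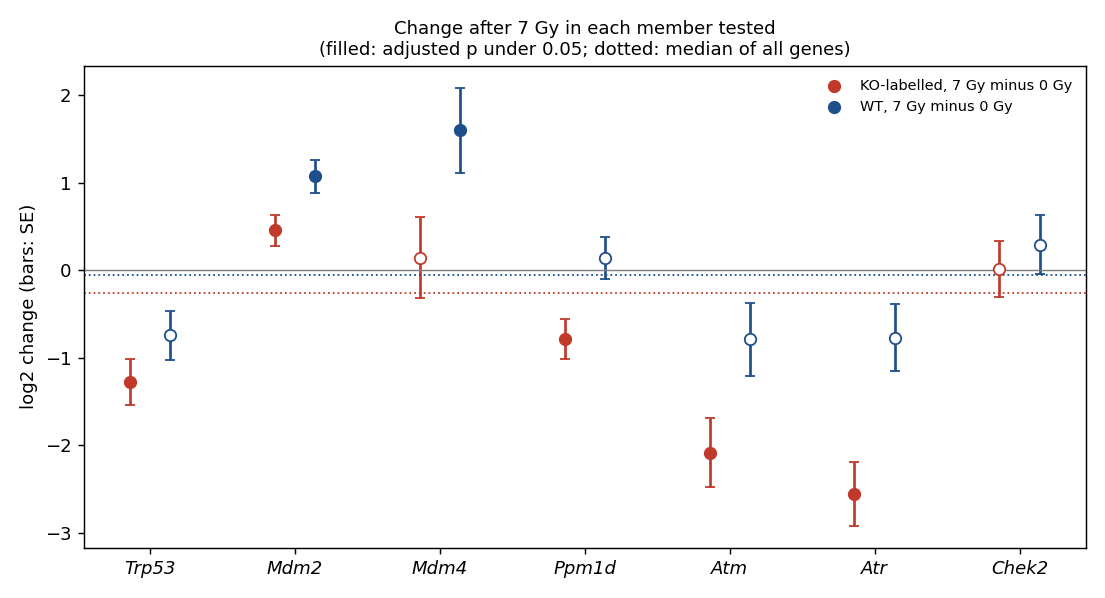
Log2 change after 7 Gy (vertical axis) of the 7 members tested, with KO-labelled blood left of WT blood for each gene. Bars are standard errors, filled points passed an adjusted p of 0.05, and dotted lines mark the median of all genes (-0.26 in KO-labelled, -0.05 in WT); Mdm2 is the one member filled above 0 in both.

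Mdm2 in KO-labelled blood read -1.24, -1.10, -1.52, -1.25, -0.41, -0.87, -0.67, -1.17 and -0.73 at 7 Gy, against -1.57, -1.56, -1.61, -1.51 and -1.10 at 0 Gy. The groups overlapped: sham replicate 5 reached the level of several irradiated arrays, and irradiated replicate 3 lay among the other sham arrays. The rise was 0.46 ± 0.18, or 1.37-fold (adjusted p = 0.0410, n = 9 against 4). Within the 5 shared slides the difference was positive each time, from 0.08 to 0.69. The call was lost without KO-labelled 0 Gy replicate 2 (0.42, adjusted p = 0.0955) or 3 (0.40, adjusted p = 0.110), and without 7 Gy replicate 5 (0.38, adjusted p = 0.0621), 6 (0.44, adjusted p = 0.0550), 7 (0.41, adjusted p = 0.0653) or 9 (0.42, adjusted p = 0.0565). It was also lost with median scaling (0.61, adjusted p = 0.206), with normexp (0.47, adjusted p = 0.189), with no filter on dim probes (0.46, adjusted p = 0.123), with near-identical arrays averaged (0.55, adjusted p = 0.0880) and with 7 Gy replicates 1 to 5 only (0.35, adjusted p = 0.145).

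Atr fell in KO-labelled blood by its RefSeq probe, which was at -7.18, -6.72, -8.38, -7.39, -6.53, -5.84, -6.13, -6.92 and -5.18 at 7 Gy, against -4.26, -4.01, -4.35, -4.20 and -3.98 at 0 Gy, and the groups did not overlap, as for 19.4% of all genes. The probe was well above background on the 5 sham arrays and on 4 irradiated ones, replicates 6 to 9, which shared a slide with no other group. Replicates 1 to 5, on the slides shared with the sham arrays, were all not well above background. The fitted change was -2.55 ± 0.37 (adjusted p = 7.53e-06). Within the shared slides, with each irradiated level raised to the lowest level that counted as well above background on its array, the 7 Gy array stayed below the 0 Gy array on all 5 slides, with differences of -2.37 to -1.06. The Ensembl probe changed by 0.13 ± 0.69 (adjusted p = 0.897).

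Atm passed background on 0 of 9 KO-labelled arrays at 7 Gy and on 4 of 5 at 0 Gy. With the irradiated levels raised as for Atr, the group mean was 1.76-fold lower at 7 Gy. That value is no strict bound, since sham replicate 2, at -4.89, was not well above background. Within the 4 shared slides where the sham array was well above background, the same raising gave differences of -0.25 to 0.32. A fall was thus not shown on every slide. Atm levels were -8.66 to -6.75 (median -7.66) at 7 Gy, against -6.28, -4.89, -6.04, -5.98 and -5.33 at 0 Gy, with no overlap. The fitted change was -2.08 ± 0.39 (limma adjusted p = 0.000167). The probe passed the filter through 0 Gy arrays alone. The call and the lack of overlap therefore set sham levels against background, and give no size of a fall. The second Atm probe was well above background on 1 of 9 and 2 of 5 of these arrays and was not tested.

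Trp53 in KO-labelled blood read -6.04, -6.35, -6.60, -6.90, -6.75, -7.11, -5.77, -5.37 and -5.68 at 7 Gy, against -5.03, -5.00, -5.28, -4.90 and -4.79 at 0 Gy. All irradiated arrays were below all sham arrays, and the probe was well above background on 4 of 9 of them, of which 1 lay on a shared slide. It fell by 1.28 on the log2 scale (SE 0.26, adjusted p = 0.000424). With the dim irradiated levels raised in the same way, the difference was -1.01 to -0.25 on the 4 shared slides where the sham array was well above background.

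Ppm1d read -5.71, -6.22, -6.27, -6.42, -5.37, -5.57, -5.74, -5.94 and -5.80 in KO-labelled blood at 7 Gy, against -5.54, -4.58, -5.20, -5.40 and -5.17 at 0 Gy. The groups overlapped slightly, and 5 of 9 irradiated arrays were well above background, of which 1 lay on a shared slide. Ppm1d fell by 0.79 on the log2 scale (SE 0.23, limma adjusted p = 0.00622). With the dim irradiated levels raised as for Atr, the differences on the 5 shared slides ran from -1.64 to 0.13. A fall was thus not shown on every slide. Without the 3 arrays with the noisiest repeat spots the value was -0.57 (adjusted p = 0.0667), with quantile normalization -0.50 (adjusted p = 0.0884), with the percentile over all probes -0.46 (adjusted p = 0.0982) and with median scaling -0.63 (adjusted p = 0.130).

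Mdm4 and Chek2 were not called in KO-labelled blood. Mdm4 was at -7.12 to -5.05 (median -6.20) at 7 Gy against -7.23 to -4.74 at 0 Gy, a change of 0.14 ± 0.46 (adjusted p = 0.825). Chek2 was at -7.63 to -6.10 (median -6.79) at 7 Gy against -7.37 to -5.98 at 0 Gy, a change of 0.01 ± 0.32 (adjusted p = 0.982). Chek1 stayed below the detection criterion on the 9 irradiated and 5 sham arrays.

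These falls depended on how the background was treated. Agilent's processed signal is background-subtracted, and for Atr it came to 2.21 to 54.4 intensity units on the KO-labelled arrays at 7 Gy against 46.0 to 122.9 at 0 Gy. With normexp on the raw means, no member passed after 7 Gy in KO-labelled blood: Trp53 was at 0.34, Atm at 0.35, Ppm1d at 0.46, Atr at -0.06 and Mdm2 at 0.47. The normexp median of all genes was 0.46.

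**Figure D3:**
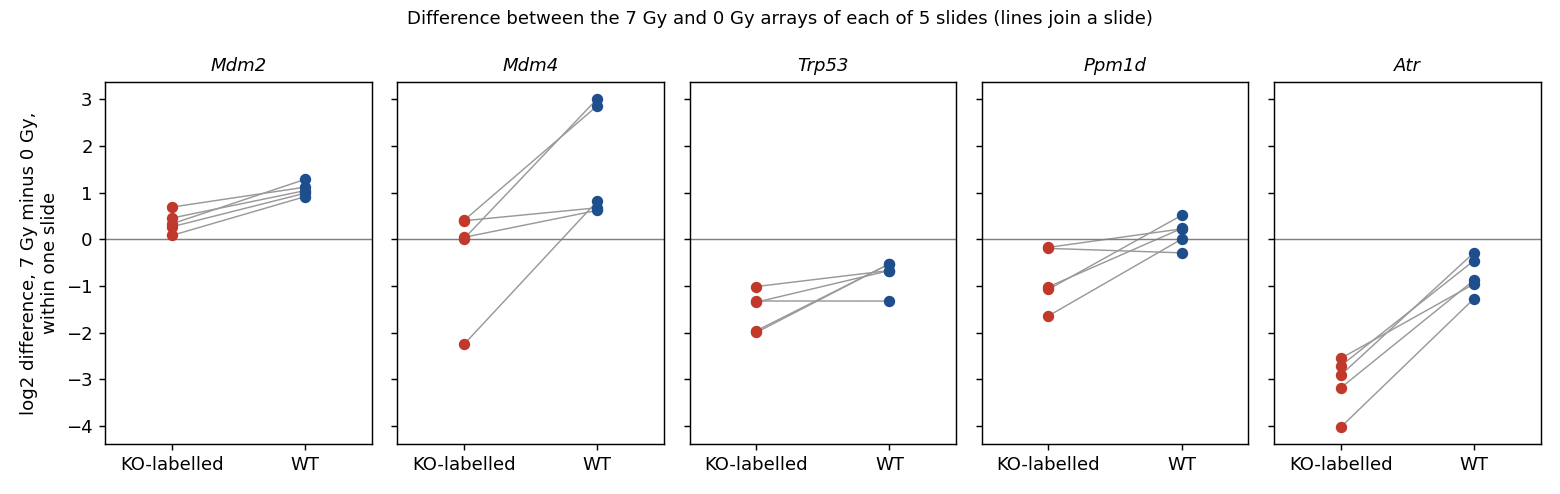
Log2 difference between the 7 Gy and the 0 Gy array of the same slide (vertical axis), for KO-labelled blood at left and WT blood at right, for 5 members on the 5 slides that held every group; lines join a slide. Mdm2 lies above 0 on each slide in both genotypes, and Atr and Trp53 lie below 0 on each slide in both. On the 5 irradiated KO-labelled arrays Atr was well above background on 0, and Trp53, Ppm1d and Mdm4 on 1 each. The depth of the KO-labelled points of these 4 genes is therefore not a measured size.

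The next comparison asked whether the response to 7 Gy differed between the genotype labels. Atr was the one member of 7 called, where 15.1% of all genes tested were called, 11.9% with a lower and 3.19% with a higher response in KO-labelled blood. Of those calls 21.2% were higher, and the share was 42.0% with quantile normalization, 49.5% in the authors' value table and 60.4% with the percentile over all probes. The Atr response was lower by 1.78 ± 0.53 in KO-labelled blood (log2 difference -1.78, adjusted p = 0.0275). The call was lost without KO-labelled 0 Gy replicate 2 (-1.74, adjusted p = 0.0528) or replicate 5 (-1.73, adjusted p = 0.0607), and when the arrays rich in hepatocyte transcripts, WT-labelled 7 Gy replicates 3 to 5, were left out (-2.16, adjusted p = 0.0553). It was also lost, with the same sign, under median scaling (-1.49, adjusted p = 0.356), quantile normalization (-1.72, adjusted p = 0.125), the percentile over all probes (-1.46, adjusted p = 0.0983), normexp (-0.46), the authors' value table (-1.01, adjusted p = 0.106), no filter on dim probes (-1.78, adjusted p = 0.0745), the mean of both Atr probes (-1.24, adjusted p = 0.0819), near-identical arrays averaged (-1.72, adjusted p = 0.533) and without the noisy arrays (-1.50, adjusted p = 0.0575).

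No other response difference passed. The value was -0.93 ± 0.33 for Ppm1d (adjusted p = 0.0583), -0.61 ± 0.26 for Mdm2 (adjusted p = 0.109), -1.46 ± 0.67 for Mdm4 (adjusted p = 0.140), -1.29 ± 0.57 for Atm (adjusted p = 0.126), -0.53 ± 0.38 for Trp53 (adjusted p = 0.357) and -0.28 ± 0.47 for Chek2 (adjusted p = 0.713). All 7 values were negative, beside a median of -0.25 over all genes. With the slide as a block, Mdm2 (-0.70, adjusted p = 0.0112), Mdm4 (-1.88, adjusted p = 0.0299) and Ppm1d (-0.96, adjusted p = 0.0218) were called beside Atr. That fit also counted every array singly.

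At 7 Gy itself, Atr was lower in KO-labelled than in WT-labelled blood, with a log2 difference of -1.34 ± 0.34 (adjusted p = 0.00617), while the irradiated groups overlapped. This call was lost with median scaling (-1.30, adjusted p = 0.0907), normexp (-0.27, adjusted p = 0.934), the authors' value table (-0.55, adjusted p = 0.133) and near-identical arrays averaged (-1.23, adjusted p = 0.483). It was the one member called of 7, where 22.4% of all genes tested were called, 17.8% as lower and 4.58% as higher in KO-labelled blood. The share of those calls that were higher was larger in other settings, at 33.9% with quantile normalization, 43.4% with normexp, 48.1% with the percentile over all probes and 49.4% in the authors' value table. Mdm4 was at -1.07 ± 0.43 (adjusted p = 0.0778) and Mdm2 at -0.27 ± 0.17 (adjusted p = 0.272). With the slide as a block, both Mdm4 (-1.46, adjusted p = 0.0157) and Mdm2 (-0.38, adjusted p = 0.0366) passed. Within slides the Mdm2 difference between KO-labelled and WT-labelled arrays at 7 Gy ran from -0.60 to 0.01. For Atr no size is given within slides, since the 5 KO-labelled arrays there were not well above background.

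Markers of several cell types moved with this difference. At 7 Gy, 6 of 8 NK cell markers and 7 of 10 neutrophil markers were lower in KO-labelled blood. Higher there were 9 of 12 erythroid markers and 1 neutrophil marker. Of 16 hepatocyte markers 11 were lower (median log2 difference over the list -2.74), and 4 of 13 T cell markers were lower. The summed log2 level of the hepatocyte markers was 2.19 to 3.16 in KO-labelled against 2.99 to 6.84 in WT-labelled blood at 7 Gy, and that of the T cell markers 1.52 to 2.90 against 2.42 to 3.19. The summed log2 level of the NK cell markers was -0.63 to 1.01 in KO-labelled against 1.33 to 2.38 in WT-labelled blood at 7 Gy, and that of the neutrophil markers 3.71 to 5.33 against 5.69 to 7.36. That of the erythroid markers was 7.52 to 8.98 in KO-labelled against 7.41 to 8.40 in WT-labelled blood. None of the 12 B cell markers differed at the threshold. In the difference between responses, 5 of 13 T cell and 5 of 8 NK cell markers were lower in KO-labelled blood. So were 4 of 10 neutrophil and 8 of 16 hepatocyte markers. Higher there were 4 of 12 erythroid, 3 of 10 platelet and 1 of 8 proliferation markers. Of 7 monocyte markers 1 was higher and 1 lower, and none of the 12 B cell markers was called. The part of these cell types in the Atr difference was not tested.

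In sham-exposed blood no member was called between KO-labelled and WT-labelled arrays, where 0.291% of all genes tested were called by limma (46 genes; 0.209% higher and 0.0824% lower in KO-labelled blood, a split of 33 to 13 that was 10 to 9 with the percentile over all probes, 11 to 2 in the authors' value table, 0 to 1 with median scaling and 1 to 0 with normexp) and 1469 of 15781 had an unadjusted p under 0.05. Atr levels were -4.26, -4.01, -4.35, -4.20 and -3.98 in KO-labelled blood at 0 Gy, against -4.71, -4.49, -4.46, -4.66 and -4.60 in WT-labelled blood at 0 Gy. They did not overlap, and 6.91% of all genes were likewise higher in KO-labelled blood without overlap; the difference of 0.44 ± 0.41 was not called (adjusted p = 0.781). Ppm1d differed by 0.57 ± 0.25 (adjusted p = 0.485), Mdm2 by 0.35 ± 0.20 (adjusted p = 0.622) and Atm by 0.87 ± 0.44 (adjusted p = 0.564).

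The genes around the circuit were taken as lists, each tested in the fit over all genes. Of 27 tested p53 targets out of 30 listed, 18 rose and 6 fell after 7 Gy in KO-labelled blood and 19 rose and 2 fell in WT-labelled blood, with median changes of 0.95 and 1.69. As given above, 12.4% of all genes rose and 34.6% fell in KO-labelled blood, and 10% rose and 13.6% fell in WT-labelled blood, and the counts of each list are to be read beside these shares. Cdkn1a, the gene of the cell cycle inhibitor p21, rose by 4.97 ± 0.36 in KO-labelled blood (adjusted p = 7.71e-10) and by 3.47 ± 0.38 in WT-labelled blood (adjusted p = 3.42e-07). Gdf15, which encodes a secreted stress cytokine, rose by 4.98 ± 0.59 in KO-labelled and by 5.08 ± 0.63 in WT-labelled blood (adjusted p = 7.87e-07 and 2.06e-06). Among the targets with the largest changes, Phlda3, an inhibitor of AKT signalling, rose by 3.17 ± 0.16 in KO-labelled blood (adjusted p = 2.61e-11) and Tnfrsf10b, a death receptor gene, by 2.95 ± 0.25 in WT-labelled blood (adjusted p = 1.48e-08). Phlda3 was well above background on all 24 arrays, Cdkn1a on 22, Gdf15 on 15 and Tnfrsf10b on 14. Apart from that of Phlda3, these sizes rest in part on levels at background and have no order. The rise of Mdm2 in KO-labelled blood was smaller than that of Phlda3. These targets were named for their size.

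The listed damage sensors and mediators around ATM and ATR went the other way. Of 18 tested out of 22 listed, 17 fell after 7 Gy in KO-labelled blood and 7 in WT-labelled blood, and none rose in either; the median change was -1.20 in KO-labelled and -0.54 in WT-labelled blood. In KO-labelled blood Timeless, of the fork protection complex, fell by 2.15 (SE 0.30, adjusted p = 6.58e-06), Rad17, the loader of the checkpoint clamp, by 2.04 (SE 0.35, adjusted p = 6.25e-05) and Rpa1, a single-strand DNA binding subunit, by 1.81 (SE 0.19, adjusted p = 1.62e-07). In WT-labelled blood the called falls of largest fitted size were those of Prkdc, the DNA-PK catalytic subunit (-1.14 ± 0.30, adjusted p = 0.00648), Topbp1, an activator of ATR (-1.12 ± 0.28, adjusted p = 0.00460), and Timeless (-1.11 ± 0.32, adjusted p = 0.0135). Prkdc was well above background on 6 of the 24 arrays, Timeless on 13 and Topbp1 on 15, so these sizes rest in part on levels at background and have no order. The response was lower in KO-labelled blood for 4 of the 18, among them Mre11a (-1.63 ± 0.50, adjusted p = 0.0324), Mdc1 (-1.16 ± 0.31, adjusted p = 0.0167) and Rad50 (-0.90 ± 0.24, adjusted p = 0.0169). MRE11 and RAD50 are subunits of the complex that recruits ATM to breaks.

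Of 25 tested regulators of p53 other than the members, out of 26 listed, 3 rose and 16 fell in KO-labelled blood, and 2 rose and 4 fell in WT-labelled blood, where the counts were near the shares over all genes. Sirt1, a deacetylase of p53, fell by 2.19 in KO-labelled (SE 0.21, adjusted p = 4.01e-08) and by 0.92 in WT-labelled blood (SE 0.22, adjusted p = 0.00354). Huwe1, a ubiquitin ligase, and Dyrk2, a kinase of p53, fell by 1.84 and 1.62 in KO-labelled blood (adjusted p = 1.92e-05 and 2.65e-05). The 2 that rose in WT-labelled blood were Cdkn2a (2.25 ± 0.70, adjusted p = 0.0220), whose product ARF inhibits MDM2 and whose locus also encodes p16, and Smyd2, a methyltransferase of p53 (1.19 ± 0.21, adjusted p = 0.000141). The array's Cdkn2a probe was not resolved here between those products.

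Genes through which the checkpoint kinases act on the cell cycle could be tested for 11 of 16. After 7 Gy, 5 fell and none rose in KO-labelled blood, and 5 fell and 1 rose in WT-labelled blood; the 5 of 11 that fell in KO-labelled blood stand beside the 34.6% of all genes that did. Cyclin genes led in WT-labelled blood, with Ccna2 at -3.03 ± 0.28 (adjusted p = 3.60e-08) and Ccnb2 at -2.63 ± 0.54 (adjusted p = 0.000982), followed by the phosphatase gene Cdc25b at -2.38 ± 0.30 (adjusted p = 2.68e-06). In KO-labelled blood the called falls of largest fitted size were those of Cdk2 (-1.66 ± 0.31, adjusted p = 0.000136), Pkmyt1, an inhibitory kinase of CDK1 (-1.37 ± 0.21, adjusted p = 1.55e-05), and Cdc25a (-1.29 ± 0.25, adjusted p = 0.000210); Cdk2 was well above background on 14 arrays and Cdc25a on 13. At 7 Gy Ccna2 was higher in KO-labelled than in WT-labelled blood by 2.16 ± 0.25 (adjusted p = 5.03e-06). Proliferation markers moved beside them: 5 of 8 tested were higher in KO-labelled blood at 7 Gy.

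**Figure D4:**
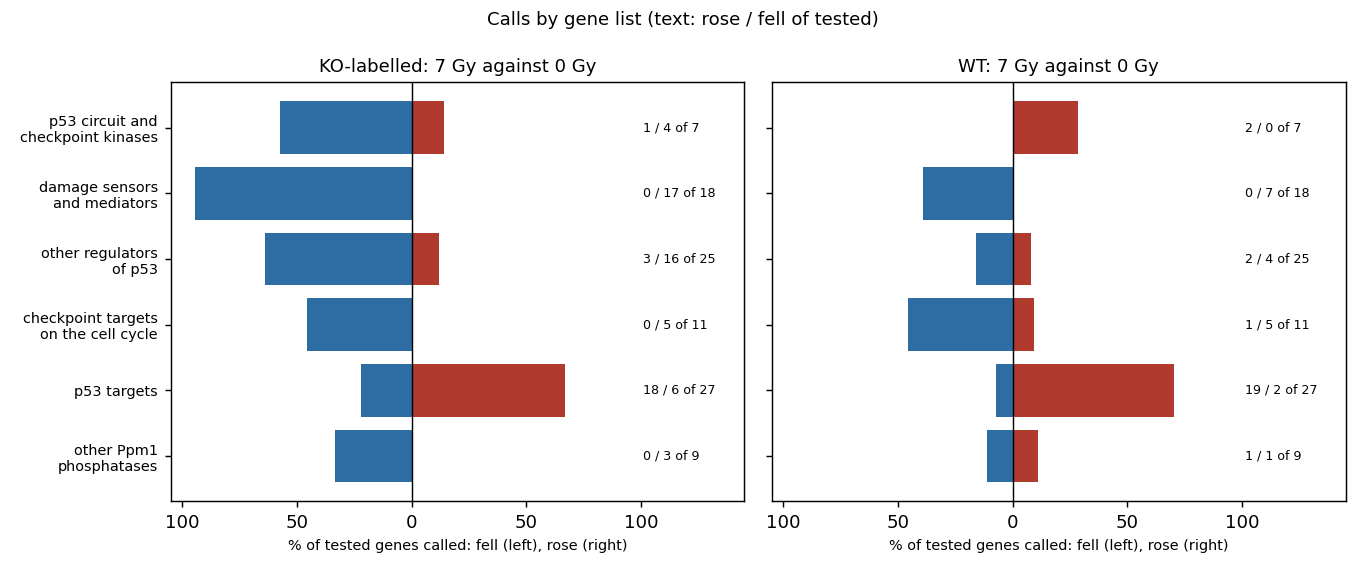
Share of tested genes of each list that fell (left of 0) or rose (right of 0) after 7 Gy at an adjusted p under 0.05, in KO-labelled blood at left and WT blood at right; the numbers give rose, fell and tested. The p53 targets lie mostly to the right in both panels, and 17 of 18 sensors and mediators lie to the left in KO-labelled blood.

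Relatives of the members gave further values. Trp63, a p53 family gene, rose by 0.47 ± 0.14 in KO-labelled (adjusted p = 0.00839) and by 0.41 ± 0.15 in WT-labelled blood (adjusted p = 0.0435), and Trp73 was called in no comparison. Of 9 tested Ppm1 phosphatases other than Ppm1d, none rose and 3 fell in KO-labelled blood, where 34.6% of all genes fell, and 1 rose and 1 fell in WT-labelled blood. The one that rose was Ppm1j (0.97 ± 0.21, adjusted p = 0.00156), and Ppm1m fell by 0.73 (SE 0.21, adjusted p = 0.0131).

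The genes whose levels ran most like each member over the 23 samples were ranked by Pearson's r, as a description, among the 6753 genes (6752 for Mdm2) measured on all arrays. These samples share the groups, so a gene that changes with dose or genotype label scores high. Atr ran with Nxf1, Vps16 and Srrm1 (r = 0.97 each). Mdm2 ran with Rhoc (r = 0.91), Rnf169 (r = 0.91) and Slc2a8 (r = 0.90), and Trp53 with Bop1 (r = 0.88), Banf1 (r = 0.87) and Gm15455 (r = 0.86). The nearest gene reached r = 0.76 for Mdm4 (Dcaf12l2), 0.78 for Ppm1d (Oxr1) and 0.66 for Chek2 (Nt5m), while the 2 nearest to Atm were unnamed here and the third was Ifi209 (r = 0.83).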

How the data were processed

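RNA of mouse blood was measured on 1-colour Agilent arrays. Intensity values were deposited as scanner output of Agilent Feature Extraction 12.0.2 (named in the submitters' processing notes), background-subtracted per the file headers. The authors' value table, used as an alternative, holds log2 values as deposited that equalled the log2 processed signal plus a constant per array. From the intensities, log2 processed signals were set against each array's 75th percentile over the 7803 probes that each of the 24 arrays detected well above background. A probe entered if 5 or more arrays detected it so (19648 probes), with the brightest probe per gene (15781 genes), and fitted with limma 3.58.1 in R 4.3.3. Two-sided p-values were adjusted by Benjamini and Hochberg's method. The signal over background and the number of arrays limit the precision; p-values measure the spread between samples, which may be technical. Probes were named through RefSeq accessions or symbols, and the script was tested on simulated data.

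Arrays of 4 groups lay on 6 slides, each scanned once. Replicates 1 to 5 of every group shared slides 1 to 5 by number, and KO-labelled 7 Gy replicates 6 to 9 were alone on slide 6. The numbers were not taken as pairs, and the slide was an alternative block. The members and lists were chosen with earlier results of these data known. Named were all members, their other probes where probes disagreed, Gadd45a, up to 3 called genes of largest change per list and comparison, and the 3 genes most like each member. Alternatives changed the scaling, background, filter, probe choice, blocks and arrays included. Trac and Ly6c2 of the marker lists were not matched.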

Additional observations from a re-analysis of the deposited data

Results flagged for a closer look

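Over 32 sets of values (8 member probes in 4 groups), 2 held a sample far from the others, and chance flags about 1 in 20. Mdm2 in KO-labelled blood at 0 Gy was at -1.10 in replicate 5, and the nearest of the other samples was at -1.54. Ppm1d in WT-labelled blood at 0 Gy was at -6.28 in replicate 4, where the probe was not well above background, and the nearest of the others was at -5.59. The response of Atr to 7 Gy differed between the genotype labels by -1.78 on the log2 scale (KO-labelled minus WT-labelled; limma interaction, adjusted p = 0.0275), and over the alternatives that did not leave out single arrays this value lay between -2.33 and -0.46.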

How the results depend on the processing

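Counts of members called (of 7) are given first. After 7 Gy in WT-labelled blood the count was 2, and 4 with the slide as a block or with KO-labelled 7 Gy replicates 1 to 5 only, 1 with quantile normalization, normexp, the authors' value table, probes well above background on all arrays or without WT-labelled 7 Gy replicates 3 to 5, and 0 with median scaling or near-identical arrays averaged. In KO-labelled blood the count was 5, and 3 with median scaling or the value table, 1 with probes well above background on all arrays and 0 with normexp. For the difference between responses it was 1, and 4 with the slide block, 3 with KO-labelled 7 Gy replicates 1 to 5 only, and 0 with median scaling, quantile normalization, the percentile over all probes, normexp, the value table, probes well above background on all arrays, no filter, the mean of a gene's probes, averaging near-identical arrays, without the noisy ones or without WT-labelled 7 Gy replicates 3 to 5. Between genotype labels at 7 Gy it was 1, and 3 with the slide block or KO-labelled 7 Gy replicates 1 to 5 only, and 0 with median scaling, normexp, the value table, probes well above background on all arrays or near-identical arrays averaged. At 0 Gy it was 0 throughout. Mdm2 alone could be tested among probes well above background on all arrays, and the value table held Mdm2, Trp53 and Atr of the probes tested. The KO-labelled 7 Gy restriction was chosen after seeing the data. Leaving out one array gave 1 to 3 members in WT-labelled blood, 4 to 5 in KO-labelled blood, 0 to 2 for the difference, 1 to 2 at 7 Gy and 0 at 0 Gy.

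Deviations from the group means of same-numbered arrays correlated between -0.39 and 0.73, with 25 of 30 correlations positive. In 31 of 60 comparisons of an array with another group its own number correlated best. Replicates 1 to 5 share slide and scan by number, so these cannot be told apart, and the cause of the correlations was not tested. The main fit did not take the numbers as pairs and leaves any part that same-numbered arrays share in the spread. Blocks for slide or replicate, which take it out, changed the calls. With the replicate number as a block, 4 members were called in WT-labelled blood, 5 for the difference between responses and 4 at 7 Gy. Trp53, not called in these comparisons without a block, was called with the replicate block at -0.79 for the difference (limma, adjusted p = 0.0224) and at -0.63 at 7 Gy (adjusted p = 0.0104). With this block Mdm4 and Chek2 turned to -0.28 and -0.20 in KO-labelled blood and Chek2 to -0.087 between labels at 7 Gy, and the slide block gave the same 3 values.

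The other changes of sign were as follows, and their cause was not tested. With median scaling Ppm1d was -0.00022 in WT-labelled blood, Chek2 0.015 for the difference and Trp53 -0.097 at 0 Gy. Quantile normalization gave Trp53 -0.086 at 0 Gy, and the percentile over all probes gave Chek2 0.049 for the difference. Normexp gave Trp53 0.62, Atm 0.82 and Atr 0.39 in WT-labelled blood, beside a normexp median of 0.60 over all genes. It gave Trp53 0.34, Ppm1d 0.46 and Atm 0.35 in KO-labelled blood, beside a median of 0.46. It also gave Mdm4 -0.077 and Chek2 -0.040 at 0 Gy and Chek2 -0.25 at 7 Gy. The value table gave Trp53 0.014 at 7 Gy, and the mean of the probes gave Atr 0.024 in WT-labelled blood. Without the noisy arrays Chek2 was 0.16 for the difference and -0.0062 at 0 Gy and Mdm4 -0.34 at 0 Gy. With KO-labelled 7 Gy replicates 1 to 5 only, Mdm4 was -0.25 and Chek2 -0.22 in KO-labelled blood and Chek2 -0.087 at 7 Gy. Leaving out one array gave Ppm1d -0.012 to 0.26 in WT-labelled blood, Mdm4 -0.16 to 0.67 and Chek2 -0.17 to 0.29 in KO-labelled blood, Chek2 -0.49 to 0.0038 for the difference and -0.066 to 0.33 at 7 Gy, and Mdm4 -0.14 to 0.69 at 0 Gy.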
